A study of Rattus norvegicus with 6 samples.

Results

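Fos, Jun, Junb and Egr1 were examined as 4 immediate early genes among the 20159 genes of an RNA sequencing table from rat cells. They were chosen by their Ensembl identifiers, which are ENSRNOG00000008015 for Fos, ENSRNOG00000026293 for Jun, ENSRNOG00000042838 for Junb and ENSRNOG00000019422 for Egr1. All 4 identifiers were present. The table lists identifiers alone, and the symbols are those given with the identifiers when the genes were chosen.

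The study asked whether keratinocyte progenitors can be turned towards corneal epithelium by the limbal niche, which surrounds and sustains the stem cells of the corneal epithelium. Polyadenylated RNA was sequenced from 6 libraries, 3 labelled primary keratinocyte progenitors and 3 labelled Limbal niche, all with rat epidermis as their tissue. The study's design describes culture on Matrigel for 14 days in keratinocyte serum-free medium or in 2 media that contain medium conditioned by limbal niche cells, but no label ties a library to one of these conditions. The labels used here give no strain, age, sex or sequencing batch and no agent that would separate the groups. They call the libraries biological replicates without naming animals or cultures, so p-values measure the spread between these samples, which may be technical. Marker genes of the labelled cell types were not examined, because no identifier beyond the chosen ones was paired with a symbol.

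Immediate early genes are transcribed within minutes of a stimulus from factors that the cell already holds, and their RNAs are short-lived. Growth factors, serum, wounding, mechanical strain and stress all induce them, and in epithelium they are known for their response to injury and to handling of the tissue. Fos, Jun and Junb encode subunits of the AP-1 transcription factor, in which a Fos protein pairs with a Jun protein through a leucine zipper. Egr1 encodes a zinc finger transcription factor induced by many of the same signals, chiefly through serum response factor bound at its promoter.

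Fos, Egr1 and Junb were high in the same 3 libraries and low in the same 3, and this division crossed the labels. They were highest in keratinocyte progenitor 2 and limbal niche 3, next in keratinocyte progenitor 3, and lower in keratinocyte progenitor 1 and limbal niche 1 and 2. The division was noticed in the values themselves, and 11.4% of all tested genes show it. For Junb the gap between the high and the low libraries was only 1.21-fold. Jun divided the libraries in another way, with keratinocyte progenitor 2 and 3 and limbal niche 1 high. None of the 4 genes separated the labelled groups. Levels are in FPKM, reads scaled by gene length and by the library total, so that genes can be compared within a library. Comparison between libraries is less secure, because the FPKM of all genes did not add up to the same sum. Limbal niche 2 had the largest sum, 661709, and limbal niche 1 the smallest, 540446. With other scalings the order of neighbouring libraries changed for Jun, Junb and Egr1.

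RefSeq promoter sequences of build GRCr8 were matched by symbol for 2 of the 4 genes, Egr1 and Junb. They are shown because no such sequence was available for Fos or Jun. The RNAs of both genes shown were high in the same 3 libraries and low in the same 3, as was that of Fos. For Junb the gap between high and low was only 1.21-fold. Each line gives the 250 bases before the annotated start of the gene, 5′ to 3′. Capitals mark matches to the CArG box, the element bound by serum response factor, and to ACGTCA, the core of the cyclic AMP response element. The Egr1 sequence is chr18:26736828-26737077 and the Junb sequence chr19:40080876-40081125, both on the plus strand.
Egr1: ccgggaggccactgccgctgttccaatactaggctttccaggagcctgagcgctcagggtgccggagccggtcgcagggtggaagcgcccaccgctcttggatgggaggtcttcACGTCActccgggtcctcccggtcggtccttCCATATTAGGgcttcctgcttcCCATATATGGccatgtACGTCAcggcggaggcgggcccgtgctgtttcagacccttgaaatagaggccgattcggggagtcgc
Junb: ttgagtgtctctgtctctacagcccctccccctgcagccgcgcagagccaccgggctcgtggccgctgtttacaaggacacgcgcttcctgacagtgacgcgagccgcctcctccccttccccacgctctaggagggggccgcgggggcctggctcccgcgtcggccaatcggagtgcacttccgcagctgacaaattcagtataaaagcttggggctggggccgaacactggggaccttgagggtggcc

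In the Egr1 window 2 CArG boxes were found on searching both strands, CCATATTAGG starting 105 bases and CCATATATGG starting 83 bases before the gene. A CArG box occurred in 501 of 33469 rat promoter windows of the same length, or 1.497%. The letters ACGTCA lay 136 and 67 bases before Egr1 and occurred in 6.95% of all windows. They are part of the full element TGACGTCA, which neither window held and which 1.59% of all windows held. The AP-1 site TGANTCA, present in 6.34% of windows, and the EGR site GCGNGGGCG, present in 4.29%, were found in neither. No element searched lay in the Junb window. These matches describe letters within 250 bases and say nothing about binding in these cells.

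Fos, the AP-1 subunit that needs a Jun partner, had the widest range. Keratinocyte progenitor 1, 2 and 3 had 20.8, 61.1 and 46.4 FPKM, and limbal niche 1, 2 and 3 had 8.54, 11.1 and 70.2 FPKM. The highest and the lowest of the 6 libraries thus both carried the limbal niche label, 8.22-fold apart, and the groups overlapped. The values rest on 240 reads in limbal niche 1 and 2014 reads in limbal niche 3, and the widest exact 95% counting interval, for limbal niche 1, ran from 7.50 to 9.70 FPKM. Such intervals cover counting error only, as reads without molecular identifiers are not independent molecules. On the FPKM scale the interval of Fos was clear of its neighbours in the order in every library. Here and below, intervals are compared on that scale alone, and their overlap under other scalings was not examined. Fos ranked between the 65.0th percentile of all genes in limbal niche 1 and the 93.5th in limbal niche 3.

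Egr1 followed Fos closely. Its level was 29.1, 76.2 and 58.1 FPKM for keratinocyte progenitor 1, 2 and 3, against 17.6, 16.3 and 68.9 FPKM for limbal niche 1, 2 and 3. The low limbal niche libraries, at 16.5 to 18.8 and 15.2 to 17.3 FPKM by their counting intervals, were not distinguishable from each other. The top position belonged to keratinocyte progenitor 2, with limbal niche 3 just below it. The range from lowest to highest was 4.69-fold.

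Junb, an AP-1 subunit that can also hold back the activity of Jun, was the most abundant of the 4 in each library. The keratinocyte progenitor libraries 1, 2 and 3 held 171, 289 and 221 FPKM, and the limbal niche libraries 135, 183 and 332 FPKM in the same order. Its range was 2.46-fold, narrower than that of Fos or Egr1, with limbal niche 1 lowest and limbal niche 3 highest as for Fos. Junb was among the 252 to 643 most abundant genes of each library.

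Jun, the main partner of Fos, fell into a tight high set and a looser low set. Its level was 22.9, 59.4 and 56.2 FPKM for keratinocyte progenitor 1, 2 and 3, against 58.7, 21.9 and 30.2 FPKM for limbal niche 1, 2 and 3. The 3 high libraries lay within overlapping counting intervals, from 54.2 to 61.5 FPKM in all. Keratinocyte progenitor 1 and limbal niche 2 were likewise not distinguishable by counting error. Limbal niche 3, the highest of the low set, had a counting interval of 28.8 to 31.7 FPKM, clear of theirs. The range over all libraries was 2.71-fold.

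**Figure D1:**
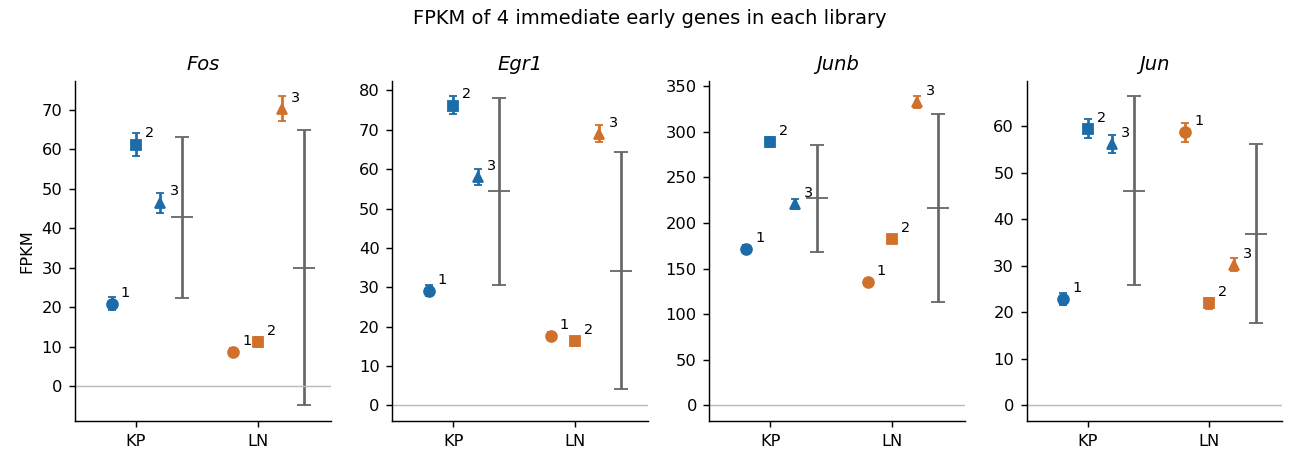
FPKM of each gene (vertical axis) in keratinocyte progenitor (KP, blue) and limbal niche (LN, orange) libraries 1, 2 and 3, with exact 95% counting intervals; grey dashes and bars give the group mean and SD (n = 3). For each gene the values of the groups overlap, and LN 3 is the highest library for Fos and Junb but low for Jun.

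The comparison that the labels imply, limbal niche against keratinocyte progenitors, found no called difference for any of the 4 genes. Of the 12085 genes tested, those averaging 1 FPKM or more, 0% were called (limma on log2(FPKM + 1), Benjamini-Hochberg adjusted p under 0.05), and 0 of the 4 genes were. A fit with limma-voom to reads recovered from the FPKM values also called 0 genes. At an unadjusted p under 0.05 there were 5.85% of all genes and, again, 0 of the 4. The groups did not overlap for 11.9% of all genes and for 0 of the 4. All 4 mean differences were negative, while 43.5% of all tested genes had a positive one, or 51.8% with median-of-ratios scaling. The median of the 4 was -0.59 on the log2(FPKM + 1) scale against -0.06 over all tested genes, and the intervals of all 4 included 0.

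The mean level of Fos was 42.8 ± 20.4 FPKM across the keratinocyte progenitors and 29.96 ± 34.9 FPKM across limbal niche libraries (mean ± SD, n = 3 in each). This is a log2 difference of -0.99 ± 0.80 (SE), whose 95% limits were -2.91 and 0.93 (limma adjusted p = 0.803; exact two-sided permutation p = 0.4). Egr1 averaged 54.5 ± 23.7 and 34.3 ± 30.03 FPKM, a log2 difference of -0.87 ± 0.61 with limits of -2.33 and 0.59 (limma adjusted p = 0.797; exact permutation p = 0.3). These intervals are wide enough to hold both a several-fold lower and a moderately higher level in limbal niche.

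Jun averaged 46.2 ± 20.2 FPKM across keratinocyte progenitors and 36.9 ± 19.3 FPKM across limbal niche libraries (mean ± SD, n = 3 in each). Here the log2 difference was -0.32 ± 0.48, with limits of -1.47 and 0.83 (limma adjusted p = 0.899; exact permutation p = 0.7). For Junb the means were 227 ± 58.9 and 217 ± 103 FPKM, and the log2 difference was -0.14 ± 0.37 with limits of -1.02 and 0.74 (limma adjusted p = 0.944; exact permutation p = 0.8). With 3 libraries against 3 the exact test cannot give a p below 0.1. In bulk RNA of this kind, fewer cells that express a gene and less RNA per cell cannot be told apart.

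Leaving out single libraries moved the size and, for Junb, the sign of these differences. Without limbal niche 3 the log2 difference of Fos was -1.90 (limma adjusted p = 0.551), and without limbal niche 1 it was -0.45 (limma adjusted p = 0.798). That of Egr1 was -1.52 without limbal niche 3 and -0.52 without limbal niche 2. Junb turned to 0.15 without limbal niche 1 and to 0.05 without keratinocyte progenitor 2. Jun ranged from -0.75 without keratinocyte progenitor 1 to -0.01 without limbal niche 2. None of these fits called any of the 4 genes.

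**Figure D2:**
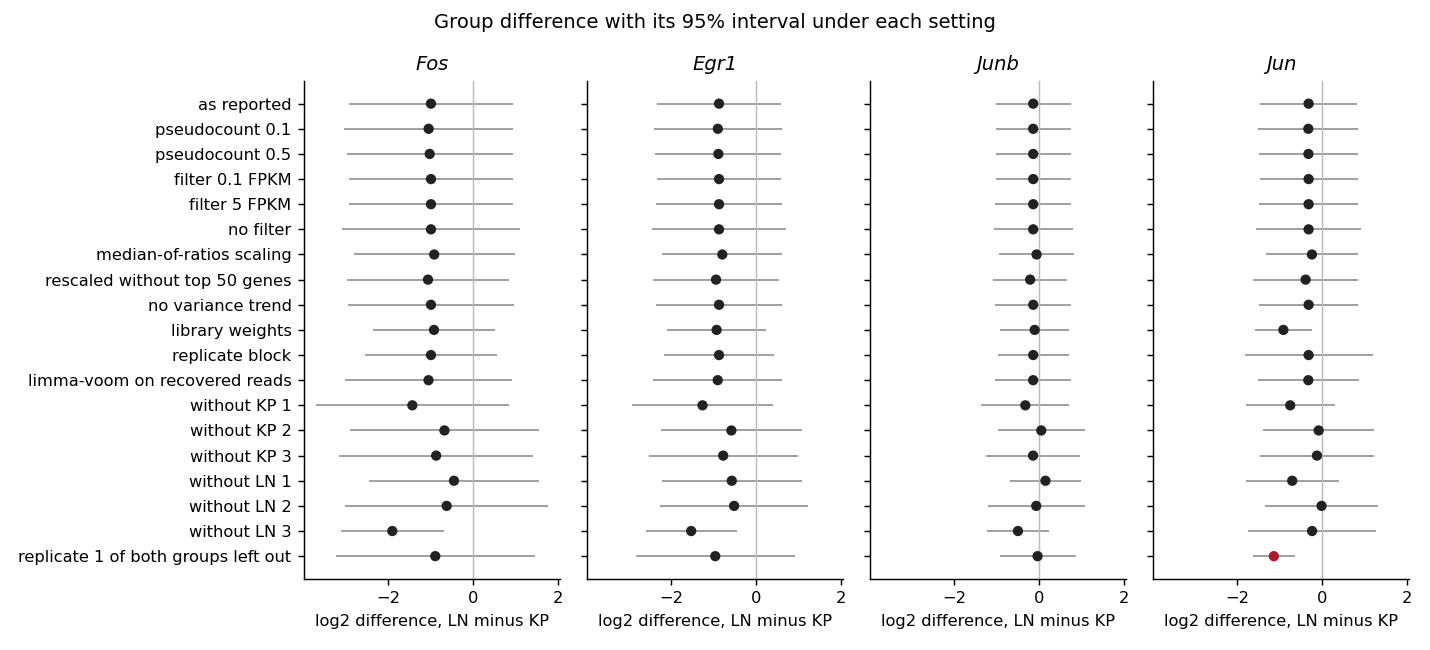
Log2 difference, limbal niche (LN) minus keratinocyte progenitors (KP), with its 95% interval (horizontal axis, log2(FPKM + 1) scale; log2 of reads scaled by the library total for limma-voom) for each gene under each setting (rows); red marks an adjusted p under 0.05. The only red point is Jun at -1.14 with replicate 1 of both groups left out.

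The spread within groups was wide for these genes. The residual SD of log2(FPKM + 1) around the group means was 1.25 for Fos, 0.94 for Egr1, 0.73 for Jun and 0.54 for Junb, against a median of 0.31 over the tested genes. It was lower than that of Fos for 97.3% of tested genes, lower than that of Egr1 for 93.6%, lower than that of Jun for 88.4% and lower than that of Junb for 79.0%. Limbal niche alone spanned 8.22-fold for Fos and 4.24-fold for Egr1, and keratinocyte progenitors spanned 2.94-fold and 2.62-fold.

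Over all genes the libraries do not group by label, and the 4 genes differ in how far they follow that grouping. Over the 6636 genes that averaged 10 FPKM or more, the median absolute difference of log2(FPKM + 1) between keratinocyte progenitor 1 and limbal niche 2 and 3 was 0.30 and 0.22, less than the 0.37 between it and either of its labelled partners. Keratinocyte progenitor 2 and 3 differed by a median of 0.06. Keratinocyte progenitor 1 and limbal niche 2 and 3 lay wholly apart from the other 3 libraries for 40.2% of tested genes, 23% with these libraries lower and 17.2% with them higher. Jun was in the former set, at 21.9 to 30.2 FPKM in these 3 libraries and 56.2 to 59.4 FPKM in the others. A share of 23% of all genes makes this no mark of Jun in particular.

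Fos, Egr1 and Junb did not follow that grouping. Limbal niche 3, one of the low libraries for Jun, was at the top for Fos and Junb, and limbal niche 1, a high library for Jun, was at the bottom for both. Keratinocyte progenitor 2 and 3 with limbal niche 3 were wholly above the other 3 libraries for all of Fos, Egr1 and Junb. The gap was 2.23-fold for Fos, from 20.8 to 46.4 FPKM, and 2.00-fold for Egr1, from 29.1 to 58.1 FPKM. For Junb it was 1.21-fold, from 183 to 221 FPKM, and 1.04-fold with median-of-ratios scaling. This arrangement was noticed in the values themselves, and 11.4% of all tested genes show it. A stricter order was also read from the values of Fos, Egr1 and Junb, so their holding to it is no test. It has keratinocyte progenitor 2 and limbal niche 3 as the highest pair and keratinocyte progenitor 3 next. Of all tested genes, 2.89% show it.

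**Figure D3:**
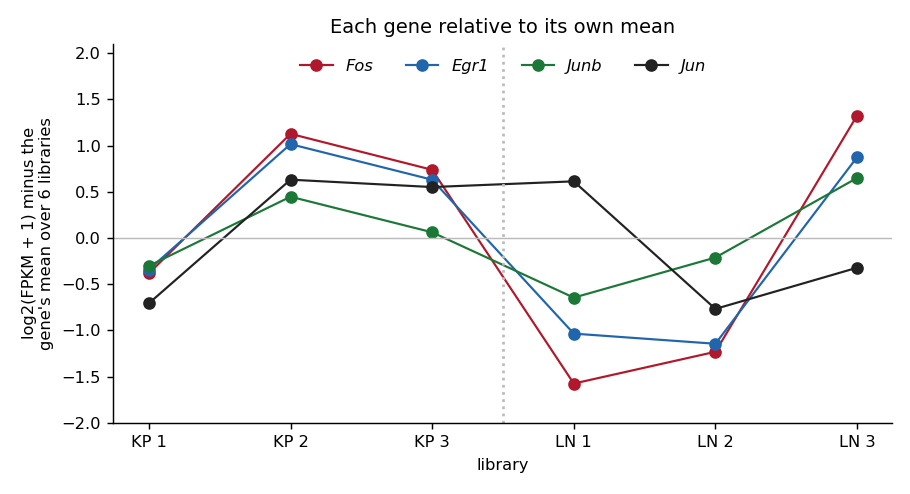
Log2(FPKM + 1) of each gene minus its own mean over the 6 libraries (vertical axis) in keratinocyte progenitor (KP) and limbal niche (LN) libraries; the lines only join points of 1 gene. Fos, Egr1 and Junb share the high points KP 2 and LN 3, and Jun leaves them at LN 1, where it is above its mean, and at LN 3, where it is below.

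Library by library, Fos and Junb had the same order in 14 of the 15 pairs of libraries, Fos and Egr1 in 13, and Junb and Egr1 in 12. The exceptions were keratinocyte progenitor 1 with limbal niche 2, keratinocyte progenitor 2 with limbal niche 3, and limbal niche 1 with 2. None of them crossed between the 3 high and the 3 low libraries. In the first of these, keratinocyte progenitor 1 was 1.79-fold above limbal niche 2 for Egr1 and at 0.939 of its level for Junb. The Junb side depended on the scaling. On rescaling without the 50 most abundant genes, keratinocyte progenitor 1 was above limbal niche 2 for both genes. Jun had the same order as Fos in 9 of 15 pairs, as Junb in 8 and as Egr1 in 11. The root mean square difference between centred log2 profiles was 0.30 for Fos and Egr1, 0.54 for Junb and Egr1 and 0.74 for Fos and Junb. For Jun it was 1.16 with Fos, 0.87 with Egr1 and 0.74 with Junb. By this measure, which also counts the size of the changes, Junb was as near to Jun as to Fos. Pairs of libraries share libraries, so these counts are a description of 6 values per gene.

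**Figure D4:**
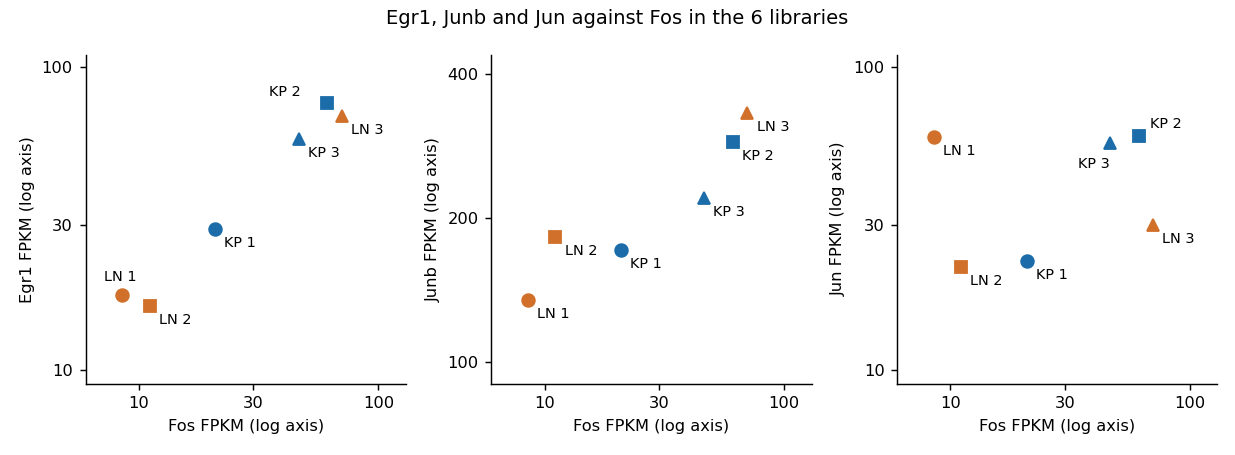
FPKM of Egr1, Junb and Jun (vertical, log axis) against Fos (horizontal, log axis) in the 6 libraries, keratinocyte progenitors (KP) in blue and limbal niche (LN) in orange. Egr1 and Junb lie along a rising band, while Jun splits into a high set with KP 2, KP 3 and LN 1 and a low set with the rest.

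The most alike libraries, keratinocyte progenitor 2 and 3, differed in Fos, Egr1 and Junb by nearly the same factor. The level in keratinocyte progenitor 2 over that in 3 was 1.32 for Fos (1754 against 1311 reads), 1.31 for Egr1 (4304 against 3230 reads) and 1.31 for Junb (9296 against 6998 reads). For Jun it was 1.06 (3315 against 3084 reads). The median gene of those averaging 10 FPKM or more differed by a factor of 1.04. Of the 6636 genes, 129 differed more than Fos, 132 more than Egr1 and 133 more than Junb, but 2643 more than Jun. The counting intervals of the 2 libraries did not overlap for Fos, Egr1 or Junb and overlapped for Jun. That keratinocyte progenitor 2 lay above 3 is part of the stricter order noticed above and is no test. The ranks also depend on the pair chosen. Between limbal niche 1 and 2, Fos differed 1.30-fold, and 3742 genes differed more.

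**Figure D5:**
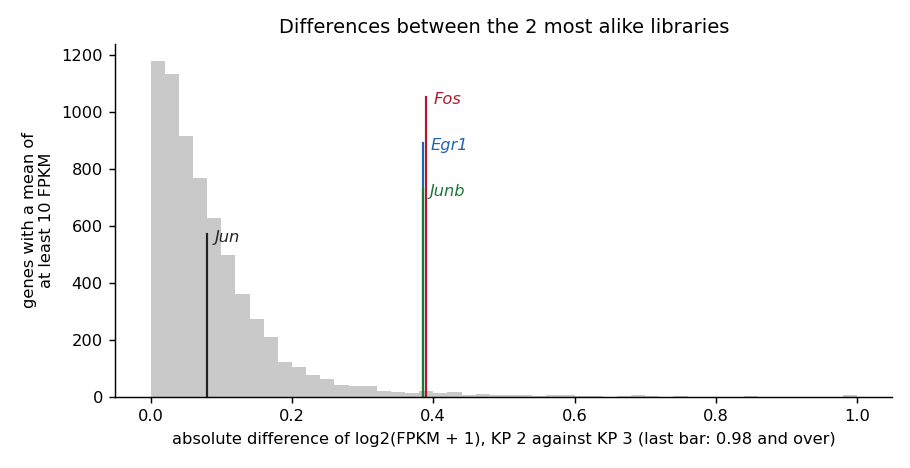
Number of genes averaging 10 FPKM or more (vertical axis) by absolute difference of log2(FPKM + 1) between keratinocyte progenitor 2 and 3 (KP 2, KP 3; horizontal axis), with the 4 genes as vertical lines. Fos, Egr1 and Junb stand together at about 0.39, beyond 98.0% of the genes, and Jun at 0.08 is within the bulk.

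The pairs that follow each join a high and a low library of the division noticed above. Differences in Fos, Egr1 and Junb between them are thus part of that division, and only their size is added here. Between limbal niche 2 and 3, Fos differed 6.32-fold, Egr1 4.24-fold and Junb 1.82-fold, all higher in limbal niche 3, where the median gene differed 1.23-fold. Of the 6636 genes, 43 differed more than Fos, 72 more than Egr1 and 499 more than Junb. Jun differed 1.38-fold between them, and 2113 genes differed more. Keratinocyte progenitor 1 and limbal niche 3 were the closest pair across the labels. Fos was 3.37-fold, Egr1 2.37-fold and Junb 1.94-fold higher in limbal niche 3, with 61, 156 and 290 genes further apart. Jun was 1.32-fold higher there, with 1797 genes further apart.

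The mixture of AP-1 subunit RNAs varied between libraries. Junb made up 66.7% to 84.7% of the summed FPKM of Fos, Jun and Junb. Jun took 29.0% of that sum in limbal niche 1 and 6.98% in limbal niche 3, and Fos took 4.23% and 16.2% in the same libraries. The ratio of Fos to Jun was 0.146 in limbal niche 1 and 2.32 in limbal niche 3. In the other 4 libraries it lay between 0.507 and 1.03. The 2 extremes of this ratio both carried the limbal niche label, and their summed level was 202 FPKM in limbal niche 1 and 433 FPKM in limbal niche 3.

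The genes whose pattern was most like the mean centred profile of the 4 genes are given by identifier, since no table paired them with a symbol. ENSRNOG00000006403 was the nearest, with a root mean square difference of 0.12. Its level was 35.5, 76.7 and 75.9 FPKM for keratinocyte progenitor 1, 2 and 3, against 28.5, 30.9 and 79.7 FPKM for limbal niche 1, 2 and 3. ENSRNOG00000017897 was next, at 0.14. Of the 4 genes themselves, Egr1 lay nearest to their mean profile, with 42 other genes nearer, and Junb had 165, Fos 1832 and Jun 5376. All 4 contribute to that profile and are thus nearer to it by construction, unlike the other genes. Jun, at 0.66, was about as far from the mean profile as the median tested gene at 0.69, although it contributes to the mean.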

How the data were processed

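The authors deposited 1 table of FPKM values for 20159 Ensembl identifiers with 1 column per library, matched to samples through the column names in the labels. Trim Galore, FastQC and DESeq2 appear, with no version, among the submitters' processing notes. Not given in the sources used here are the aligner, counter, genome build, annotation and use of strand. The 4 genes, the lists and the alternatives were chosen with earlier results of these data known.

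Solving the FPKM formula for whole reads, whole gene lengths and whole library totals gave reads for 20159 of 20159 genes (absolute tolerance 1e-09 or relative 1e-11) and totals from 17678076 to 18237668. The lengths so found were 3089 bases for Jun, 1783 for Junb, 1589 for Fos and 3130 for Egr1. The RefSeq gene spans, introns included, are 3094, 1785, 2867 and 3800 bases; Jun and Junb have no intron, and the difference for Fos and Egr1 was not examined further. A read here may be 1 sequenced end or a fragment.

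Log2(FPKM + 1) values were tested with limma 3.58.1 (R 4.3.3), with group as the only term, a variance trend and Benjamini-Hochberg adjustment over the 12085 genes averaging 1 FPKM or more. A pseudocount of 1 understates changes of genes with low values. Exact permutation tests used scipy 1.17.1. Both the recovery and the limma script were tested on simulated data. The reads simulated for limma held no grouping of libraries across the labels, so how the fits perform under it was not tested. The named genes are the 4 chosen ones and the 2 nearest to their mean profile. Planned lists of other AP-1, EGR and immediate early genes and of cell type markers were not used, since 0 of 47357 RefSeq rows carry an Ensembl identifier. Alternatives were other pseudocounts, filters, scalings and variance settings, a replicate block, limma-voom on the reads, and leaving out libraries.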

Additional observations from a re-analysis of the deposited data

How the results depend on the processing

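Of the 18 alternatives, none called Fos, Egr1 or Junb, and 1 called Jun: with replicate 1 of both groups left out its log2 difference was -1.14 (limma adjusted p = 0.0318, against 0.899 with all libraries). That choice was made knowing that these libraries do not group by label, it keeps the nearly alike keratinocyte progenitor 2 and 3, and it called 1804 genes, 14.9% of those tested; the cause was not tested. The reported analysis called 0 genes, against 11 without a filter on low values (the cause was not tested) and 0 to 2 on leaving out 1 library. On leaving out 1 library in turn, Fos ran from -1.90 to -0.45, Egr1 from -1.52 to -0.52, Jun from -0.75 to -0.01 and Junb from -0.50 to 0.15, which includes the 2 fits in which Junb turned positive, at 0.15 and 0.05. Without limbal niche 3 the unadjusted limma p was 0.00938 for Fos and 0.0139 for Egr1, with an adjusted p of 0.551 for both. In that fit 1051 of the 12085 tested genes had an unadjusted p under 0.05. The library left out is the highest for Fos and the next to highest for Egr1. The library weights gave Jun -0.91 with a limma adjusted p of 0.089. That fit put 3693 of the 12085 tested genes under an unadjusted p of 0.05 and called 0, with a lowest adjusted p of 0.0504.

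Libraries with the same replicate number did not deviate together, with correlations of -0.48, -0.35 and -0.25 between their deviations from the group means, and no library correlated best with its own number. A replicate block cannot change the log2 differences here, because each group holds every replicate number once, so only their errors and p-values can move. The differences were -0.99 for Fos, -0.87 for Egr1, -0.32 for Jun and -0.14 for Junb. With the block each had a limma adjusted p of 0.988, and 0 genes were called. The divisions of the libraries described for the 4 genes held under both other scalings, while neighbours exchanged places for Jun, Junb and Egr1. Counting error was at most 12.9% of a value, for Fos in limbal niche 1, and totals ran from 17678076 to 18237668 reads. Depth beyond counting error was not tested.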
